A study of Mus musculus with 16 samples.

Results

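The stress keratins Krt6a, Krt6b, Krt16 and Krt17 were followed through bulk RNA sequencing of mouse dorsal skin with and without UVB irradiation in both sexes. They were chosen by name, as the keratin genes that skin is known to switch on when it is wounded or stressed, and they are 4 of the 55359 gene identifiers in the count tables. Whole dorsal skin came from 16 wild-type mice, labelled C57Bl/6 and named C57Bl/6N in the study's text, with 4 mice in each of 4 groups (no-UVB male, UVB male, no-UVB female and UVB female). All 16 mice, irradiated or not, are recorded at 8 weeks of age. The irradiated mice were shaved, received 3 UVB exposures from 8 weeks of age and were sampled 6 h after the last one. Whether the no-UVB mice were shaved is not given in the sources used here, so shaving and UVB cannot be told apart. The study's general rule was to leave out animals whose skin entered hair growth or was burned by UVB, and its migration experiments used resting-phase skin, but the hair cycle phase of these 16 mice is not given in the sources used here. Each comparison asked how the stress keratins answered UVB in 1 sex and whether that answer differed between males and females.

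Keratins are the intermediate filament proteins of epithelial cells, and they assemble as pairs of a type I and a type II protein. Basal epidermal cells carry the Krt5 and Krt14 pair, and cells that move up and differentiate switch to Krt1 and Krt10. Krt6a and Krt6b are type II keratins and Krt16 and Krt17 are type I keratins. In resting skin these genes are known mainly from the hair follicle, its companion layer and other appendages, while in the epidermis between follicles Krt6 and Krt16 are known as markers of wounding, hyperproliferation and inflammation.

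In GRCm39 coordinates, Krt6b (ENSMUSG00000023041.8) lies at chr15:101584458-101588722 and Krt6a (ENSMUSG00000058354.8) at chr15:101598345-101602742, both on the minus strand, with Krt5 next in line after Krt6a. Krt16 (ENSMUSG00000053797.11) lies at chr11:100136917-100139795 and Krt17 (ENSMUSG00000035557.10) at chr11:100147040-100151974, also on the minus strand. The coding transcripts of Krt6a and Krt6b have 9 exons each, and those of Krt16 and Krt17 have 8.

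Krt6a and Krt6b are near-identical copies, so how far their reads can be told apart bears on every value below. Over 1659 aligned coding bases they were identical at 97.8%, with an unbroken identical stretch of 280 bases. By the same alignment Krt16 and Krt17 were identical at 78.0% of 1290 aligned coding bases. The coding window of 100 bases, within 1 exon, where Krt6a and Krt6b differed most is shown because only reads across such differences can be assigned to 1 of the genes. It lies in exon 1 of both, at chr15:101602261-101602360 for Krt6a and chr15:101588236-101588335 for Krt6b, and is written along the minus strand with the 7 differing bases in capitals.
Krt6a: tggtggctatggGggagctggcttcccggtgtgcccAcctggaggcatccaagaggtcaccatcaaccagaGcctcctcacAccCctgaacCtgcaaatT
Krt6b: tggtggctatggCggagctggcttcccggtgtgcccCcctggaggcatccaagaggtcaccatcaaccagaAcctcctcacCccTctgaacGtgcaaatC

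Of the 100-base windows along the Krt6a transcript, 29.5% also occurred in Krt6b, and 30.1% of those of Krt6b occurred in Krt6a. Krt6a also shared 2.30% with its neighbour Krt5 and 4.22% with the keratin-like gene Gm5478, windows that partly overlap each other and those shared with Krt6b, so the shares do not add up. Krt16 shared 20.2% with the pseudogene Gm11597 and 3.00% with Krt14, the basal type I keratin. Krt17 shared no 100-base window with any other annotated gene. STAR's gene counts take reads placed at 1 site, and the count tables list 0 reads with several sites in every mouse. The levels of Krt6a, Krt6b and Krt16 are therefore taken to rest on sequence outside these stretches, although how reads with several sites were set aside is not given in the sources used here.

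**Figure D1:**
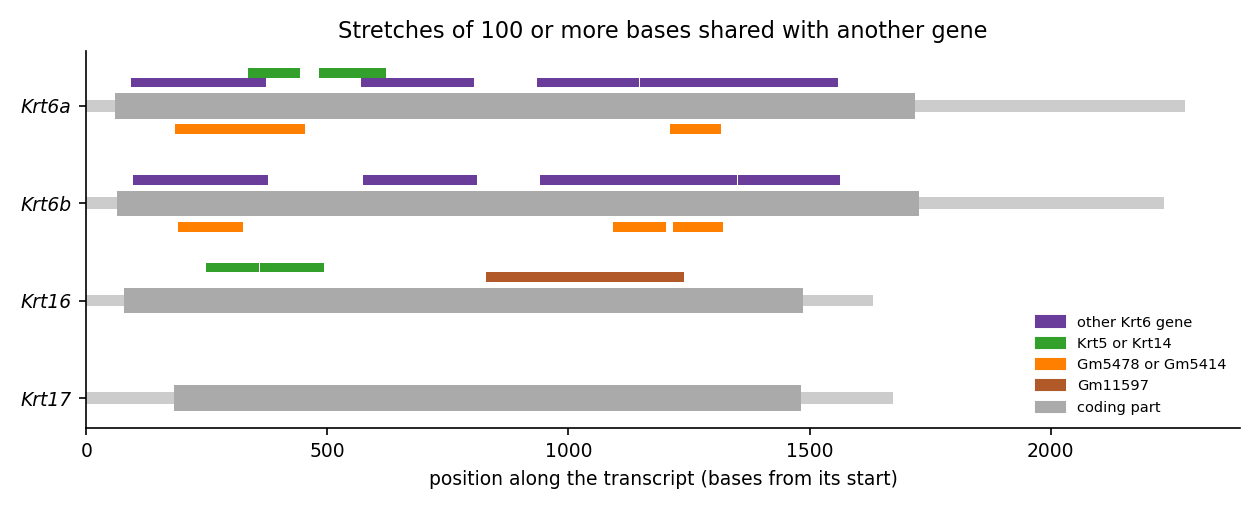
Transcripts of the 4 stress keratins drawn to scale in bases from the transcript start, with the coding part as a thick grey bar and coloured bars for stretches of at least 100 bases that another gene also holds (genes on the opposite strand of the same place are left out). Krt6a and Krt6b share 5 stretches of 197 to 280 bases with each other, all in the coding part, and Krt17 has none.

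The libraries held between 16495776 and 33404831 reads assigned to genes, with a median of 21767339. Xist and Kdm5d matched the labelled sex in all 16 mice, and the epidermal keratins Krt5 and Krt14 were abundant in every group. A list of 15 keratins of the hair shaft and inner root sheath, which mark growing hair, stood apart in no-UVB males: its summed level was 59.0 and 98.2 CPM (reads of a gene scaled to library size) in replicates 3 and 4 against 3.64 and 4.37 in replicates 2 and 1, and it did not pass 8.13 in the other 12 mice. The fitted differences of the 4 genes and the ratios in males are therefore also given without replicates 3 and 4. Krt75, the keratin of the companion layer, ranged from 36.9 to 59.4 CPM in no-UVB males and from 30.9 to 62.1 in no-UVB females. In whole skin, fewer cells of a type and less RNA per cell cannot be told apart.

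Krt6b gave the largest response of the 4 genes. Without UVB it was close to silent, at 3.95, 3.27, 1.995 and 1.59 CPM in the males and 3.06, 3.76, 4.57 and 4.49 CPM in the females. After UVB it stood at 1082, 1718, 782 and 996 CPM in the males. In irradiated females it reached 42.3, 105, 180 and 131 CPM. The irradiated mice lay above every non-irradiated mouse in both sexes, and the irradiated males lay above every irradiated female. Mean Krt6b was 424-fold higher with UVB in males, from 2.70 ± 1.10 to 1144 ± 403 CPM (SD, n = 4), and 28.9-fold higher in females, from 3.97 ± 0.707 to 114 ± 57.2 CPM.

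Krt6a, the other type II gene, started from a higher level and moved less. It was at 144, 134, 89.7 and 78.3 CPM in no-UVB males and at 1348, 1854, 956 and 1292 CPM in UVB males, groups that did not overlap. No-UVB females held 159, 96.3, 91.2 and 55.6 CPM of Krt6a, and UVB females 110, 167, 330 and 281 CPM. The female groups overlapped: UVB female replicate 1 lay below the highest no-UVB female. Mean Krt6a was 12.2-fold higher with UVB in males, from 111 ± 32.1 to 1363 ± 370 CPM (SD, n = 4), and 2.21-fold higher in females, from 100 ± 42.8 to 222 ± 101 CPM.

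Krt16, the type I keratin usually found together with Krt6, was low in non-irradiated skin and high in every irradiated male. No-UVB males had 15.8, 11.2, 20.2 and 19.6 CPM of Krt16, and UVB males had 1164, 1580, 803 and 1011 CPM. In females the level was 28.1, 22.6, 12.7 and 12.7 CPM without UVB and 67.3, 144, 205 and 181 CPM with it. Neither sex showed any overlap between irradiated and non-irradiated mice, and every irradiated male lay above every irradiated female. The mean was 68.2-fold higher in males and 7.87-fold higher in females.

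Krt17, the other type I gene, was already abundant in non-irradiated skin. Its level was 669, 552, 642 and 544 CPM in no-UVB males and 924, 1006, 790 and 827 CPM in UVB males, so that the groups did not overlap although the means differed by only 1.47-fold. The share of all genes whose groups separate in this way is not given here, for this or the other stress keratins. No-UVB females had 823, 722, 581 and 454 CPM of Krt17 and UVB females had 619, 481, 804 and 761 CPM. These female ranges lay almost on top of each other.

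**Figure D2:**
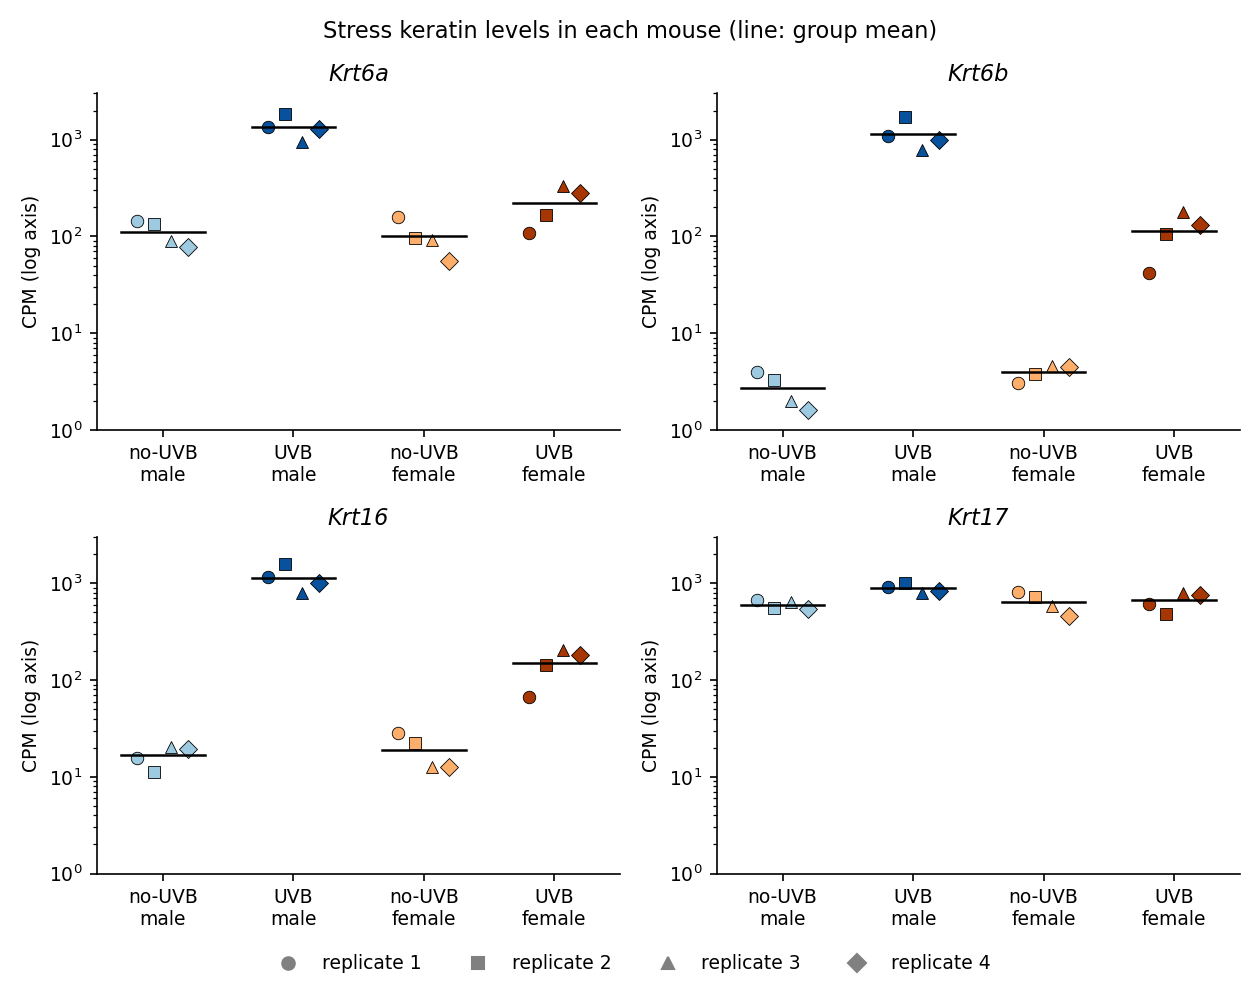
CPM of each stress keratin in each of the 16 mice on a log axis, with 1 symbol per replicate number and a line at the mean of each group of 4. Krt6b, Krt16 and Krt6a are high in all 4 UVB males and intermediate in UVB females, Krt6b and Krt16 clear of the no-UVB females, while Krt17 stays between 454 and 1006 CPM in every mouse.

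The fits across all genes used the quasi-likelihood test of edgeR, with p adjusted by Benjamini-Hochberg over all tested genes, and a response within 1 sex was called at an adjusted p under 0.1 with a log2 fold change past 1. In males 3 of the 4 genes were called higher, where 4.08% of the 16535 tested genes were. The log2 fold change was 8.72 (SE 0.387, adjusted p = 1.62e-06) for Krt6b, which ranked 3 among all tested genes by this value. Krt16 had 6.11 (SE 0.284, adjusted p = 1.54e-06) and Krt6a 3.63 (SE 0.270, adjusted p = 1.36e-05). Krt17 rose by a log2 fold change of 0.57 (SE 0.0984, adjusted p = 0.000565), which was past the adjusted p but not the fold, beside 29.0% of tested genes that were higher in UVB males at any fold. Without no-UVB male replicates 3 and 4 the log2 fold changes were 8.34 for Krt6b, 6.43 for Krt16, 3.33 for Krt6a and 0.57 for Krt17, each on the same side of both thresholds.

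In females the same 3 genes were called higher, where 1.63% of the 16883 tested genes were. Krt6b had a log2 fold change of 4.85 (SE 0.416, adjusted p = 0.000187) and Krt16 of 2.97 (SE 0.377, adjusted p = 0.00103), and they ranked 12 and 41 by size. The Krt6a value of 1.14 (SE 0.373, adjusted p = 0.0688) was close to both thresholds. It was lost in 6 of 8 fits that left out 1 female, namely each of replicates 2, 3 and 4 of either female group. It was also lost when genes with a single count were kept in the test (adjusted p = 0.271) and with a replicate block (1.13, adjusted p = 0.144). Krt17 showed 0.05 (SE 0.207, adjusted p = 0.907) in females, a difference smaller than its error.

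The responses themselves differed between the sexes for the genes that moved most. Taking the male response minus the female response over all 16 mice, 3 of the 4 genes were called higher at an adjusted p under 0.1, where 2.75% of 17406 tested genes were. The difference in log2 fold change was 3.86 (SE 0.590, adjusted p = 0.00778) for Krt6b, 3.12 (SE 0.494, adjusted p = 0.00976) for Krt16 and 2.48 (SE 0.509, adjusted p = 0.0253) for Krt6a. For Krt17 it was 0.52 (SE 0.246, adjusted p = 0.243). The Krt17 value passed the threshold only without no-UVB female replicate 4, with 0.67 (adjusted p = 0.0937). Leaving out no-UVB male replicates 3 and 4 gave 3.46 for Krt6b, 3.42 for Krt16, 2.16 for Krt6a and 0.49 for Krt17, on the same sides of the threshold.

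**Figure D3:**
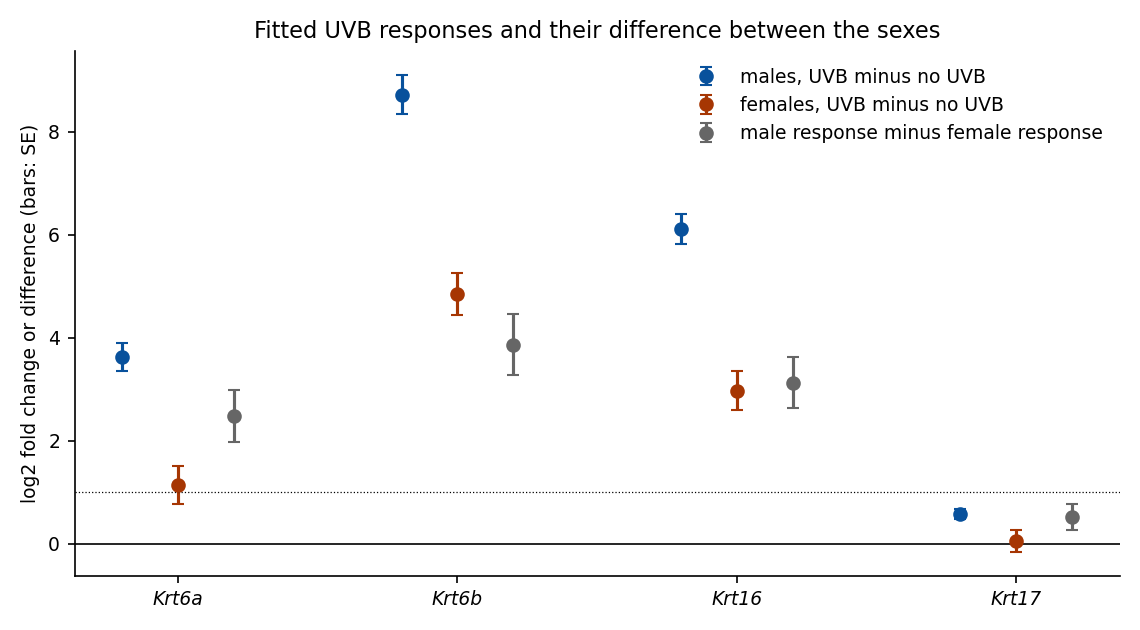
Fitted log2 fold changes with UVB in males and in females, and the male response minus the female response, for each stress keratin. Points are edgeR estimates, bars are standard errors and the dotted line marks a log2 fold change of 1. The male point lies above the female point for each gene, at 8.72 against 4.85 for Krt6b and at 0.57 against 0.05 for Krt17.

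Between no-UVB males and no-UVB females none of the 4 genes was called, where 11.8% of tested genes were called in either direction. The male minus female log2 differences were 0.16 (SE 0.357, adjusted p = 0.862) for Krt6a, -0.53 (SE 0.481, adjusted p = 0.576) for Krt6b, -0.18 (SE 0.357, adjusted p = 0.831) for Krt16 and -0.09 (SE 0.174, adjusted p = 0.820) for Krt17. Without no-UVB male replicates 3 and 4 these became 0.47 for Krt6a, -0.12 for Krt6b, -0.48 for Krt16 and -0.07 for Krt17, and none was called. After UVB, 3 of the 4 were higher in males, where 12.8% of tested genes were. The log2 differences were 3.33 (SE 0.367, adjusted p = 0.000113) for Krt6b, 2.94 (SE 0.353, adjusted p = 0.000207) for Krt16 and 2.63 (SE 0.374, adjusted p = 0.000666) for Krt6a. As ratios of mean CPM these were 9.996-fold, 7.62-fold and 6.14-fold. Krt17 differed by 0.42 (SE 0.174, adjusted p = 0.104), with 3 of 4 UVB males above every UVB female. With DESeq2's size factors or its Wald test the Krt17 difference of 0.44 passed the threshold (adjusted p = 0.0883 and 0.0522). It also passed in edgeR without UVB female replicate 3 (adjusted p = 0.0628) or 4 (0.0981) and without no-UVB female replicate 1 (0.0787) or 4 (0.0639).

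Within the irradiated groups the 4 genes put the extreme mice in the same places. UVB male replicate 2 was highest and replicate 3 lowest for all 4 genes. UVB female replicate 3 was highest for all 4, and replicate 1 was lowest for Krt6a, Krt6b and Krt16, while replicate 2 was lowest for Krt17. The basal keratins Krt5 and Krt14 had the same highest mice. They stood at 4021 and 5686 CPM in UVB male replicate 2 and at 2563 and 2258 CPM in UVB female replicate 3. The coefficient of variation in UVB males was 35.2% for Krt6b, 28.9% for Krt16, 27.2% for Krt6a and 11.0% for Krt17. In UVB females it was 49.99%, 40.3%, 45.7% and 22.0% in the same order.

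Per unit of transcript length, the order of the genes changed with irradiation in males. The length used includes stretches shared with other genes, from which reads with several sites would be missing. Krt6a shared 29.5% of its windows with Krt6b, Krt6b 30.1% with Krt6a and Krt16 20.2% with Gm11597, against no window for Krt17. Levels per length of Krt6a, Krt6b and Krt16 may therefore be understated beside Krt17. In TPM, which scales reads to transcript length as well as library size, Krt17 led in no-UVB males at 1550 ± 203 (SD, n = 4), followed by Krt6a at 198 ± 55.6, Krt16 at 44.2 ± 11.7 and Krt6b at 5.19 ± 2.09. None of these neighbours overlapped, and the no-UVB females had the same order without overlap, from 1824 ± 481 for Krt17 to 8.37 ± 1.45 for Krt6b. In UVB males the means lay between 1983 ± 631 TPM for Krt6b and 2707 ± 694 for Krt16, with Krt6a at 2187 ± 533 and Krt17 at 2063 ± 162, and all neighbours overlapped. In UVB females Krt17 remained apart at 1639 ± 471 TPM. There Krt6a at 380 ± 193, Krt16 at 377 ± 168 and Krt6b at 211 ± 113 overlapped with each other. Among all genes ordered by mean TPM, Krt6b went from place 12291 to 58 in males and from 11123 to 577 in females. Krt16 went from 3467 to 38 and from 2915 to 317.

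The make-up of each pair changed as well. Krt6b made up 2.49% ± 0.321 of the Krt6a plus Krt6b TPM in no-UVB males and 47.2% ± 1.99 in UVB males (SD, n = 4). In females its share was 4.82% ± 2.49 without UVB and 35.2% ± 4.77 with it. On the log2 scale the ratio of Krt6b to Krt6a counts rose by 5.12 in males and 3.57 in females and was 0.73 higher in UVB males than in UVB females (exact two-sided permutation test, p = 0.0286 in each, the smallest that 4 against 4 mice allow). The adjusted p over the 24 ratio tests was 0.0429 for each of them. Without no-UVB male replicates 3 and 4 the male rise was 4.98 (exact permutation, adjusted p = 0.0889). The unadjusted p was then the smallest that the remaining mice allow, as for every male ratio given below without these replicates. Without UVB the difference between the sexes was -0.82 (exact permutation p = 0.143, adjusted p = 0.180). Summed over both genes, Krt6 rose in males from 114 ± 33.2 to 2507 ± 770 CPM, and it was 104 ± 42.2 CPM without and 336 ± 157 CPM with UVB in females, where the ranges of 60.1 to 162 and 152 to 510 CPM overlapped.

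Among the type I genes, Krt16 made up 2.77% ± 0.696 of the Krt16 plus Krt17 TPM in no-UVB males and 56.2% ± 4.37 in UVB males. The female shares were 2.86% ± 0.513 and 18.5% ± 5.87. These shares set Krt16, which has stretches shared with other genes, against Krt17, which has none, and may understate Krt16. The log2 ratio of Krt16 to Krt17 rose by 5.52 in males and 2.89 in females and stood 2.57 higher in UVB males than in UVB females (exact two-sided permutation p = 0.0286 in each, adjusted p = 0.0429). The male rise without no-UVB male replicates 3 and 4 was 5.84 (exact permutation, adjusted p = 0.0889). All 4 genes together held 5.85% ± 1.05 of the TPM of all keratin genes in no-UVB males and 16.03% ± 2.76 in UVB males. In females they held 6.53% ± 1.28 and 7.97% ± 1.56, ranges that overlapped.

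**Figure D4:**
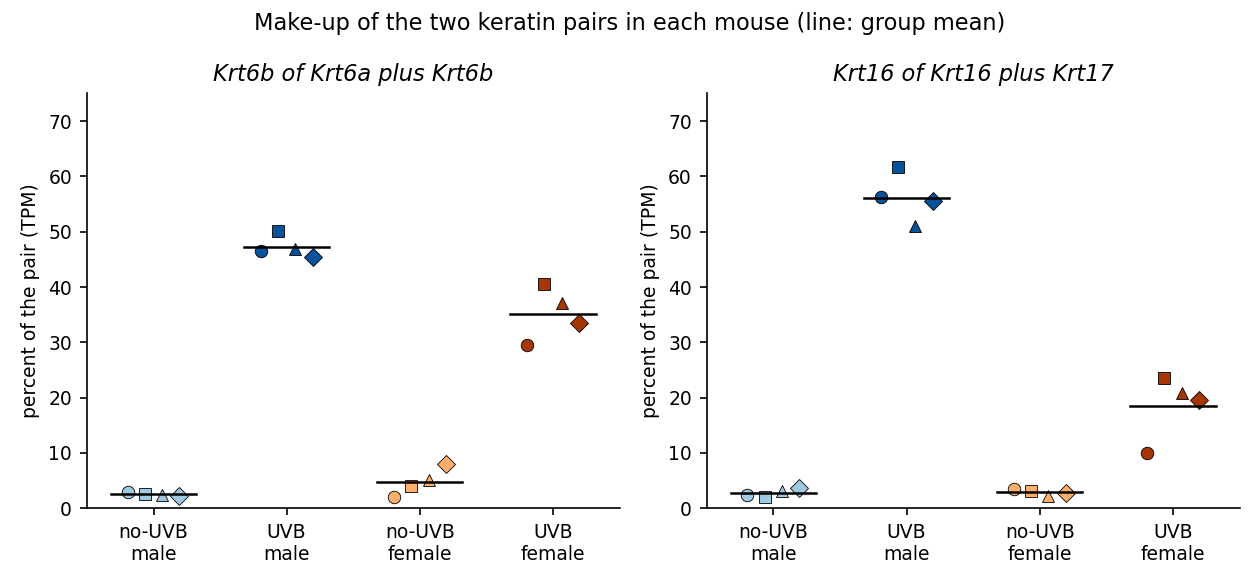
Krt6b as a percent of Krt6a plus Krt6b (left) and Krt16 as a percent of Krt16 plus Krt17 (right), both in TPM, in each mouse with a line at the group mean. The share of Krt6b reached 45.5% to 50.1% in UVB males and 29.5% to 40.6% in UVB females, and that of Krt16 reached 51.0% to 61.7% and 10.03% to 23.5%.

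The stress keratins were also set against the basal epidermal keratin of the same type, Krt5 for type II and Krt14 for type I, counted in the same library. These basal keratins did not move alike. Krt5 was 2823 ± 625 CPM without and 3406 ± 499 CPM with UVB in males (log2 fold change 0.29, adjusted p = 0.151), and 2435 ± 430 and 2079 ± 389 CPM in females (-0.23, adjusted p = 0.425). Relative to Krt5, the log2 ratio of Krt6b rose by 8.46 in males and 4.91 in females and that of Krt6a by 3.34 in males (exact two-sided permutation p = 0.0286, adjusted p = 0.0429 for each). For Krt6a to Krt5 in females the increase was 1.34 (exact permutation p = 0.0571, adjusted p = 0.0762), and 2 of the 8 fits without 1 female kept that adjusted p under 0.1. Without no-UVB male replicates 3 and 4 the male increases were 7.71 for Krt6b and 2.73 for Krt6a (adjusted p = 0.0889 for each, from exact permutation). Krt14, unlike Krt5, rose in males by a log2 fold change of 1.44 (SE 0.232, adjusted p = 0.000645). In females the Krt14 value was 0.47 (SE 0.164, adjusted p = 0.0801), and the responses differed by 0.95 (adjusted p = 0.0885). The female value, short of the fold threshold, stayed past the adjusted p in 9 of 16 alternative fits, and the difference in 12 of 24.

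Against Krt14, the log2 ratio of Krt16 rose by 4.64 in males and 2.47 in females and was 1.86 higher in UVB males than in UVB females (exact two-sided permutation p = 0.0286, adjusted p = 0.0429 for each). Krt17 fell behind Krt14: its log2 ratio fell by 0.89 in males (exact permutation p = 0.0286, adjusted p = 0.0429) and by 0.43 in females (exact permutation p = 0.0571, adjusted p = 0.0762). The ratio of Krt17 to Krt14 was also 0.71 lower on the log2 scale in UVB males than in UVB females, with -0.71 as the male minus female difference (exact permutation p = 0.0286). No ratio passed the test between the sexes without UVB, with unadjusted exact permutation p from 0.143 to 1 over the 6 ratios. By the same exact test, Krt6b to Krt6a passed without no-UVB female replicate 1 (-1.19, adjusted p = 0.0403) and Krt16 to Krt14 without no-UVB female replicate 3 (-0.54, adjusted p = 0.0762). Without no-UVB male replicates 3 and 4 the male response in Krt16 to Krt14 was 4.53 and in Krt17 to Krt14 -1.31, and the sex difference without UVB in Krt17 to Krt14 went from -0.25 to 0.17 and passed the test in neither case. The male fall of Krt17 to Krt14 lost its call without UVB male replicate 2 (exact permutation, adjusted p = 0.114), and the female one kept it in 2 of 8 fits without 1 female.

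Other epidermal keratins moved in both directions. Of 12 epidermal keratins on the list, all tested, 4 were called higher and 1 lower in males, where 4.08% and 3.31% of tested genes were. In females 2 were called higher and 1 lower, where 1.63% and 1.08% were. The highest was Krt2, a keratin of differentiating epidermis named after its values were seen, with log2 fold changes of 4.34 (SE 0.387) in males and 3.17 (SE 0.490) in females, the latter above the 2.97 of Krt16. Its level was low, at 0.804 CPM without and 16.1 CPM with UVB in males. The median log2 fold change of the list was 0.45 in males and 0.15 in females, beside -0.02 and 0.00 over all tested genes. Krt1 rose with a log2 fold change of 3.13 (SE 0.291) in males and 1.99 (SE 0.261) in females, and Krt10 with 1.24 (SE 0.143) and 0.62 (SE 0.168). Krt77, a keratin of the suprabasal epidermis, had a male value of -0.38 (adjusted p = 0.0325) and a female value of -0.00452. The gene called lower in both sexes was Krt15, a keratin of the basal layer and the hair follicle bulge, with -1.25 in males and -1.11 in females. Krt75 of the companion layer, where Krt6a and Krt17 are also known from, was lower in both sexes at -0.81 (adjusted p = 0.00394) and -0.99 (adjusted p = 0.0217), short of the fold threshold in each.

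**Figure D5:**
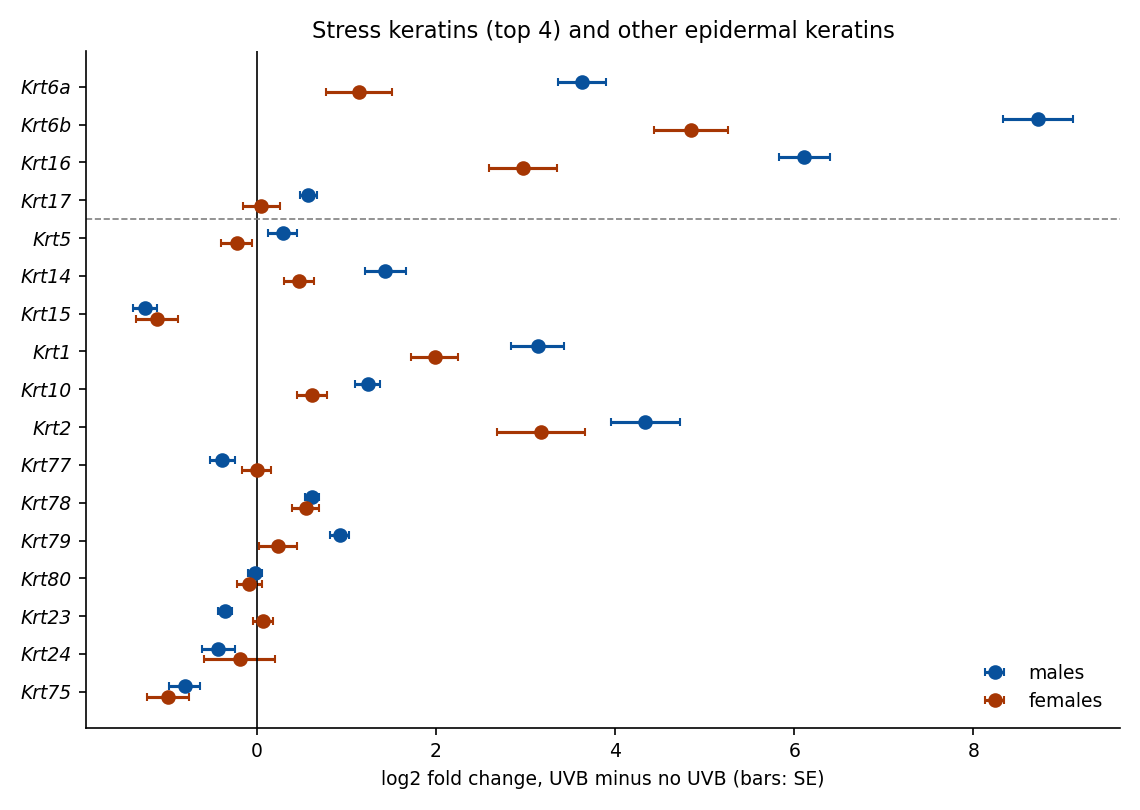
Log2 fold changes with UVB in males and females, with standard errors, for the 4 stress keratins above the dashed line and for 12 other epidermal keratins and Krt75 of the companion layer below it. Krt6b reached 8.72 in males and 4.85 in females, beyond the 4.34 and 3.17 of Krt2, which in females lay above Krt16 at 2.97, while Krt17 at 0.57 and 0.05 stayed below Krt14 at 1.44 and 0.47.

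Secreted factors known to induce stress keratins in keratinocytes, such as cytokines of the interleukin-1 family and ligands of the EGF receptor, were read from a list of 19 genes. In males 4 of 13 tested were called higher and 1 lower, beside 4.08% and 3.31% of all tested genes. In females 4 of 14 were called higher and 1 lower, beside 1.63% and 1.08%. The most abundant were Il36g, with log2 fold changes of 3.02 (SE 0.217) in males and 2.36 (SE 0.128) in females, and Il36a, with 5.78 (SE 0.441) and 3.81 (SE 0.388). The male Il36a value was 7.11 without no-UVB male replicates 3 and 4. Epgn, an EGF receptor ligand, had 2.73 and 2.88, and Ereg, another ligand, had 0.13 and 0.12 and was called in neither sex. None of the 15 inducers tested over 16 mice was called higher in the male minus female response at an adjusted p under 0.1 (edgeR), where 2.75% of tested genes were, which does not show that their responses were alike. For Il36a that difference was 1.95 (SE 0.668, adjusted p = 0.119). It stayed short of the threshold in 17 of 24 alternative fits, which gave 1.67 to 3.27, and passed in the others. Among irradiated mice, 5 of the 15 inducers were called higher in males and 2 lower, beside 12.8% and 12.5% of all tested genes.

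Regulators of stress keratin transcription were read from a list of 12 genes. In each sex 1 was called higher, beside 4.08% of all tested genes in males and 1.63% in females, and it was Fosl1, a component of AP-1, with log2 fold changes of 1.73 (SE 0.242) in males and 1.28 (SE 0.331) in females. At any fold, 6 were higher at an adjusted p under 0.1 in males, where 29.0% of tested genes were, and 4 in females, where 12.8% were. At any fold 2 were lower in males, where 30.5% were, and 1 in females, where 10.6% were. The most abundant, Cebpb, Junb, Jun and Rela, had values of -0.24 to 0.33 in males, and the female values ran from 0.15 to 0.49. The response of 1 of the 12 was called higher in males than in females, beside 2.75% of all tested genes: Stat3, the transcription factor downstream of several cytokines, at 0.42 (adjusted p = 0.0228), with 0.48 in males and 0.04 in females. Fosl1 and Stat3 were named after their values were seen.

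Other cell types and states moved with irradiation as well, and their part in the keratin values was not tested. Of 10 proliferation genes all 10 were higher at an adjusted p under 0.1 at any fold in both sexes, where 29.0% of tested genes in males and 12.8% in females were. Past the fold threshold as well, 5 of the 10 were called higher in males, beside 4.08% of tested genes, and 0 in females, beside 1.63%. The summed level of the 10 genes went in males from a range of 151 to 262 CPM to one of 368 to 437 CPM, and in females from 155 to 209 CPM to 239 to 316 CPM. The summed level of 12 neutrophil-list genes was 11.3 to 18.9 CPM in no-UVB males and 55.1 to 162 in UVB males, against 11.3 to 17.1 and 21.5 to 32.3 in females. UVB male replicate 2, highest for all 4 stress keratins, was also highest for the neutrophil and the proliferation list. UVB female replicate 3, likewise highest for all 4, was highest among UVB females for the proliferation list (316 CPM) but not for the neutrophil list (23.8 CPM, against 32.3 in replicate 2). Both mice were also highest in their group for the epidermal keratin list (34770 and 21370 CPM) and for the skeletal muscle list (16970 and 19800 CPM). Most of the neutrophil sum in UVB males was S100a9 and S100a8, which stressed keratinocytes also express. Of 7 neutrophil-list genes tested in males, 5 were higher at any fold, beside 29.0% of all tested genes, and of 5 tested in females 2 were, beside 12.8%. Among the others of the list in males, Cxcr2 went from 0.458 to 5.73 CPM, Csf3r from 6.01 to 9.70, Mmp8 from 0.295 to 1.96 and Retnlg from 2.25 to 1.48, and Ly6g was at 0 in both male groups. Cxcr2 and Mmp8 were named after their values were seen. Krt6b, Krt16 and Krt6a kept their call in males without UVB male replicate 2, and Krt17 stayed past the adjusted p and short of the fold, since the 8 fits that left out 1 male gave 8.46 to 8.96 for Krt6b, 5.91 to 6.25 for Krt16, 3.44 to 3.77 for Krt6a and 0.51 to 0.63 for Krt17.

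The summed level of 6 fibroblast genes, mostly collagen, was 78470 to 86000 CPM in no-UVB males and 28380 to 39280 in UVB males, and 19110 to 20930 and 12040 to 22130 CPM in females, with 5 of 6 lower at any fold in males, beside 30.5% of all tested genes, and 1 of 6 in females, beside 10.6%. The summed level of 8 skeletal muscle genes was 19020 to 23430 CPM in no-UVB males and 13830 to 16970 in UVB males, and 12790 to 18720 and 13660 to 19800 in females, with 6 of 8 lower at any fold in males and 0 of 8 in females (edgeR). That of 5 adipocyte genes was 1281 to 1932 and 1093 to 1521 CPM in males and 1392 to 2341 and 1396 to 2974 in females, with 3 of 5 lower at any fold in males and 0 of 5 in females (edgeR). In these 3 lists no gene was at 0 in a group.

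The same lists moved with the comparisons between the sexes, and their part in the keratin differences was not tested. Without UVB, 4 of 6 fibroblast genes and 3 of 8 skeletal muscle genes were already higher in males, where 11.8% of tested genes were called in either direction. No proliferation, neutrophil-list or adipocyte gene was called there. In the male minus female response, 3 of 7 neutrophil-list genes were called higher, beside 2.75% of all tested genes, while 5 of 8 skeletal muscle genes and 3 of 6 fibroblast genes were called lower, beside 4.25%. Among irradiated mice, 10 of 10 proliferation genes, 4 of 7 neutrophil-list genes and 3 of 6 fibroblast genes were higher in males, beside 12.8% of all tested genes. So were 5 of 12 epidermal keratins, with 1 lower. Their summed level was 25690 to 34770 CPM in UVB males and 17000 to 21370 CPM in UVB females. All 5 adipocyte genes and 1 of 8 muscle genes were lower in irradiated males, beside 12.5%.

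For each stress keratin, the 3 coding genes with the closest profile over the 16 mice were found among 14017 genes by the root mean square difference of centred log2 CPM, as a description. Closest to Krt6a were Rptn (0.465), which codes for the epidermal protein repetin, Tubb3 (0.501) and the gap junction gene Gjb2 (0.555). Closest to Krt6b were the stefin-type protease inhibitor genes Cstdc5 (0.812) and Stfa2 (0.838) and then Spink7 (0.856). Krt16 was nearest to the cornified envelope genes Sprr2d (0.568) and Lce3f (0.658) and the protease gene Klk13 (0.670). Krt17 was nearest to Sdc1 (0.0967), Scnn1a (0.128) and Kdf1 (0.129). Between the stress keratins themselves the closest were Krt6a and Krt16 at 1.15 and Krt6b and Krt16 at 1.24, and the farthest were Krt6b and Krt17 at 3.41. Cstdc5 stood 2.79 and 913 CPM without and with UVB in males, and 3.27 and 163 CPM in females.

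Reads were counted by strand, and the Krt6 genes lie across genes of the other strand. Krt6a overlaps the lncRNA Gm49428 and the miRNA gene Gm55158 on the plus strand, and Krt6b overlaps the miRNA gene Gm55157. When strand was ignored, Krt6a counts were 55.2% to 59.8% of the stranded counts and Krt6b counts 83.3% to 94.4%, while Krt16 and Krt17 kept 100% to 102%. Gm49428 itself had at most 16 reads in a mouse. Every call on the 4 genes in the 5 comparisons was the same with the counts that ignore strand.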

How the data were processed

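Poly(A) RNA of whole dorsal skin was sequenced from directional libraries (1 per mouse). The deposited values were read counts per gene made by the authors with STAR on GRCm39, as the submitters' processing notes name them, in 3 columns (strand ignored and each strand). The column of the library's strand was used; the opposite strand held 3.63% to 4.23% of gene reads. The tables list multimapping reads as 0 in every mouse, and 10.1% to 16.4% of reads as unmapped. Rows that name no gene were left out. Of 55359 identifiers, 54749 were found in GENCODE M39 and 610 were not.

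Counts were fitted with edgeR 4.0.16 (R 4.3.3; filterByExpr, TMM, robust quasi-likelihood test, Benjamini-Hochberg over all tested genes). Responses within a sex used its 8 mice, other contrasts all 16. CPM used TMM factors over 16 mice and TPM the union of exons. Ratios used counts plus 0.5 with exact permutation tests (24 tests). The script was tested on simulated data. Common biological variation was 0.107 in males and 0.139 in females. Counting error adds little at these depths except for Krt6b without UVB. Alternatives covered strand, scaling, filters, DESeq2 1.42.0, a replicate block and each mouse left out. Alignments used Biopython.

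The genes, lists and tests were chosen with earlier results of these data known. Named genes were the 4 stress keratins, the 3 nearest profiles of each and, from each list, at most 4 genes by mean TPM plus Krt5, Krt14, Krt1, Krt10 and Krt75. Krt15, Krt2, Fosl1, Stat3, Cxcr2 and Mmp8 were added after their values were seen, and Ly6g was also named outside this rule. Mice were the replicates, and the labels give no batch. Promoters were not analysed here.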

Additional observations from a re-analysis of the deposited data

Results flagged for a closer look

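The UVB responses of 3 stress keratins differed between males and females by a test of the difference itself, in edgeR's quasi-likelihood fit over 16 mice with Benjamini-Hochberg adjustment over 17406 genes. The male response minus the female response was 3.86 on the log2 scale for Krt6b (SE 0.590, adjusted p = 0.00778), 3.12 for Krt16 (SE 0.494, adjusted p = 0.00976) and 2.48 for Krt6a (SE 0.509, adjusted p = 0.0253). In each of these genes all 4 UVB males lay above all 4 UVB females, and in none of them did no-UVB males and no-UVB females separate. The share of all genes that separate in this way is not given here. Over the 16 fits that left out 1 mouse the difference ranged from 3.60 to 4.18 for Krt6b, from 2.87 to 3.33 for Krt16 and from 2.16 to 2.75 for Krt6a, past the threshold in every fit. Genes of the neutrophil, fibroblast and skeletal muscle lists were also called in this comparison, with the counts given in the report, and their part in the keratin differences was not tested.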

How the results depend on the processing

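The calls of Krt6b and Krt16 in the responses of both sexes, in the difference between the responses and between the sexes after UVB were the same under each alternative run, as were those of Krt6a outside the female response. With a replicate block the Krt6a response in females was 1.13 (adjusted p = 0.144), and with every gene of at least 1 count in the test it was 1.14 (adjusted p = 0.271). Leaving out 1 mouse gave 0.89 to 1.45 for Krt6a in females, the lowest without UVB female replicate 3 (adjusted p = 0.195), and -0.0924 to 0.186 for Krt17 in females. The Krt17 sex difference after UVB was 0.44 with DESeq2 size factors or the DESeq2 Wald test and 0.29 to 0.52 with 1 mouse left out, where 4 of 16 fits passed, and the Krt17 difference between responses 0.37 to 0.67. Without UVB the sex difference ran from -0.0640 to 0.468 for Krt6a, -0.359 to 0.0684 for Krt16 and -0.248 to 0.0489 for Krt17.

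For the ratios, whose calls that changed are named above, leaving out 1 mouse gave 1.21 to 1.61 for Krt6a to Krt5 in females, -0.53 to -0.34 and -1.05 to -0.74 for Krt17 to Krt14 in females and males, and, between the sexes without UVB, -1.19 to -0.51 for Krt6b to Krt6a and -0.54 to -0.13 for Krt16 to Krt14.

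The counts over all genes moved more. With every gene of at least 1 count, 1124 genes were higher and 923 lower in males, 229 were higher in the difference between responses and 1434 in males after UVB, against 675, 547, 478 and 2222. With at least 10 counts in every mouse, 359 were lower in males and 180 higher in females, against 547 and 275. DESeq2 gave 1102 genes higher in the difference between responses. Leaving out 1 mouse gave 163 to 835 higher and 298 to 1020 lower there, against 478 and 740, 1322 to 2341 for males after UVB and 1192 to 2264 in either direction without UVB. An alternative chosen after seeing the data left out no-UVB male replicates 3 and 4 and gave 1027 genes higher in males and 832 in the difference between responses. The cause was not tested.

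Of 47 values of other named genes past the adjusted p, 37 passed in every alternative and none reversed. Replicate numbers did not pair the mice: deviations of same-numbered mice correlated at -0.07 to 0.02 in males and -0.11 to 0.22 in females. The block changed no other call on the 4 genes. Krt6b without UVB rests on few reads, which limits the precision of its fold change.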
